A study of Mus musculus with 4 samples.

Results

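The 10 cytokines described here are made by stromal cells of hematopoietic organs and were followed on arrays of tumor stroma and of tumor T cells. They are IL-7 (Il7), stem cell factor (Kitl), Flt3 ligand (Flt3l), M-CSF (Csf1), IL-6 (Il6), LIF (Lif), IL-33 (Il33), TSLP (Tslp), IL-15 (Il15) and IL-34 (Il34). They were taken by name and are 10 of the 22907 genes to which probes of the array could be assigned. They are read by 19 of 56605 probes, with 1 probe each for Il7, Lif and Tslp, 3 each for Kitl and Csf1 and 2 each for the other five.

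RNA came from subcutaneous Bcr-Abl+ tumors of Wt mice and of Sipa1-/- mice, all C57BL/6Ncr and 8 weeks old. Sipa1 is a protein that switches off the small GTPase Rap1. The deletion is in the germline, so every host cell of Sipa1-/- mice lacked the gene, while the injected cells were GFP+ hematopoietic progenitors (HPCs) carrying Bcr-Abl, the kinase fusion of chronic myeloid leukemia. Tumors arose from 15000 HPCs per mouse in Matrigel and were taken on day 12, from 5 mice of each genotype in all. How many mice each array stands for is not given in the sources used here. From the digested tissue 2 populations were sorted, mesenchymal stroma cells (MSCs) as GFP- CD45- Ter119- CD31- cells and CD8+ T cells as GFP- TCRb+ CD8+ cells. The MSC gate removes leukocytes, erythroid and endothelial cells but selects no mesenchymal protein. Each of the 4 combinations of population and genotype was measured on 1 one-color Agilent array, and the arrays of Sipa1-/- cells are called knockout arrays, so there is no replicate of any condition. No test was possible and no p-value is given, and the differences below compare 2 arrays.

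Cytokines of this kind keep blood cells alive in the niche, the stromal surroundings in which stem cells and progenitors live. Stem cell factor and Flt3 ligand act on early progenitors through the receptor kinases Kit and Flt3, IL-7 and TSLP on lymphoid cells, M-CSF and IL-34 on monocytes and macrophages through one shared receptor, and IL-15 on NK cells and memory CD8+ T cells. IL-6 and LIF signal through the common subunit gp130, and IL-33 is a nuclear alarmin of fibroblasts and epithelium that acts on lymphoid and mast cells.

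To show the DNA in front of cytokines with large and small differences between the MSC arrays, the 250 bases before the start site are printed for Il6 and Kitl, which differed much, for Csf1, which was bright in MSCs, and for Flt3l, which differed least. The sequences are those of RefSeq for mouse build GRCm38.p6, read 5′ to 3′ on the strand of the gene, and they lie at chr5:30012864-30013113 on the plus strand for Il6, at chr10:100015571-100015820 on the plus strand for Kitl, at chr3:107760470-107760719 on the minus strand for Csf1 and at chr7:45136433-45136682 on the minus strand for Flt3l. Capitals mark motif matches.
Il6: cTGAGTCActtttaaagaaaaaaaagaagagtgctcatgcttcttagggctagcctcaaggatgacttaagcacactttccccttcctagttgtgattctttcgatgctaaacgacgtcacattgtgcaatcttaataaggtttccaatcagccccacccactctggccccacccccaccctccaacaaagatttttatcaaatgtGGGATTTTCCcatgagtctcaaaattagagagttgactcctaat
Kitl: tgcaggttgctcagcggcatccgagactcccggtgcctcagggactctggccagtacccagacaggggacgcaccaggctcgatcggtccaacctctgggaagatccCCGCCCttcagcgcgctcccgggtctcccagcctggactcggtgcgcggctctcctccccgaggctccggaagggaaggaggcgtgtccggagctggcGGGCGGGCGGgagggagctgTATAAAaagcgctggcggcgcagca
Csf1: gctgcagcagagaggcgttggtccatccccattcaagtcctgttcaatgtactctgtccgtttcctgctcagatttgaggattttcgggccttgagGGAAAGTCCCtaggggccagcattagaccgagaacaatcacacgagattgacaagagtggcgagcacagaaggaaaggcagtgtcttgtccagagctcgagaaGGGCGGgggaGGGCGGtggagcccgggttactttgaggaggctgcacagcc
Flt3l: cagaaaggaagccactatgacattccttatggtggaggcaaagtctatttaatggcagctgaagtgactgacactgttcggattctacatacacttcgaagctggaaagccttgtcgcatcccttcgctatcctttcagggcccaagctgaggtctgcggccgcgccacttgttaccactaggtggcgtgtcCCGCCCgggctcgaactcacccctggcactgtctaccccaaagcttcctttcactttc

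Each motif was searched on both strands. An NF-kB site, GGGAN followed directly by TTTCC, was found in Il6 and, on the opposite strand, in Csf1, against 0.356% of all 32851 promoters of the same length. In Il6 it covers bases -44 to -35 counted from the start site and in Csf1 bases -154 to -145. The AP-1 site TGANTCA was in Il6 and in Lif, and in 6.75% of all promoters. The TATA box TATAAA stood at bases -25 to -20 of Kitl and in both listed promoters of Il33, with 12.4% of all promoters holding it. The GC box GGGCGG was in Csf1, Flt3l and Kitl, 3 times in the last with an overlap of neighbouring matches, and in 32.7% of all promoters. Neither the CRE site TGACGTCA, held by 1.55% of promoters, nor the interferon-type GAS site TTCNNNGAA, held by 7.02%, was found. Matches are a description of letters and were not tied to the array values. Promoters could be read for 6 of the 10 cytokines, the others being Il7, Tslp, Il15 and Il34.

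Signals are given as log2 of the scanner's background-corrected intensity minus the 75th percentile of the same array, so that 0 is the level that 75% of spots do not exceed. Of 59305 spots without controls, 60.3% to 65.3% were well above background on the 4 arrays, and no spot was saturated. Sipa1 itself, averaged over 2 probes, was lower on the knockout arrays by 1.42 in MSCs and by 1.86 in CD8+ T cells on the log2 scale. Its probes went from 5.03 to 3.78 and from 3.05 to 1.46 on the MSC arrays and from 5.40 to 3.73 and from 3.43 to 1.39 on the CD8+ T arrays, well above background on each. Where the probes lie in relation to the deleted part is not given in the sources used here. Of 10 mesenchymal markers 9 passed the flags on both MSC arrays, and the other, Pdgfra, was well above background there at 3.01 and 4.52 but failed the flag for an even background and was left out. Of 5 CD8+ T markers all were detected on both CD8+ T arrays. Transcripts of other cells were present on the arrays of both populations. On the CD8+ T arrays 6 granulocyte markers had a summed signal of 9.224 in Wt and 8.304 in Sipa1-/-. There the CD8+ T markers summed to 8.399 and 8.477, and 10 B lineage markers to 4.826 and 4.358. The part of such transcripts in the values of the CD8+ T arrays was not tested. The summed signal of 10 B lineage markers was 9.37 on the Wt and 5.36 on the knockout MSC array, against 9.94 and 10.56 for the mesenchymal markers, and that of 6 granulocyte markers was 9.28 and 9.37 and that of 4 erythroid markers 8.47 and 8.56.

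All 10 cytokines were detected on both MSC arrays, and all 10 were higher on the knockout array. Of them 8 were higher by 2-fold or more, against a background of 19.3% of the 15293 genes measured in both, and none was lower by 2-fold or more, against 11.3%. With normexp background correction in place of the scanner's own, 4 were past 2-fold, against 11.9% of genes, and Kitl, Tslp, Il7 and Lif were the ones that no longer were. Over all genes 51.7% were higher by any amount. The median log2 difference of the cytokines was 1.29 and that of all genes 0.04. Among the 19 probes every one was higher, from 0.71 to 2.39, and 15 were higher by 2-fold or more. Probes of one cytokine differed from each other by between 0.01 and 0.45, the latter for Csf1. The error printed with a difference below is the scanner software's own error of the spots carried to the log2 scale, which is near 0.20 for a single bright probe and leaves out the spread between mice. A larger value can come from more cells of a type in the sorted population or from more RNA per cell, and these cannot be told apart in bulk RNA.

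**Figure D1:**
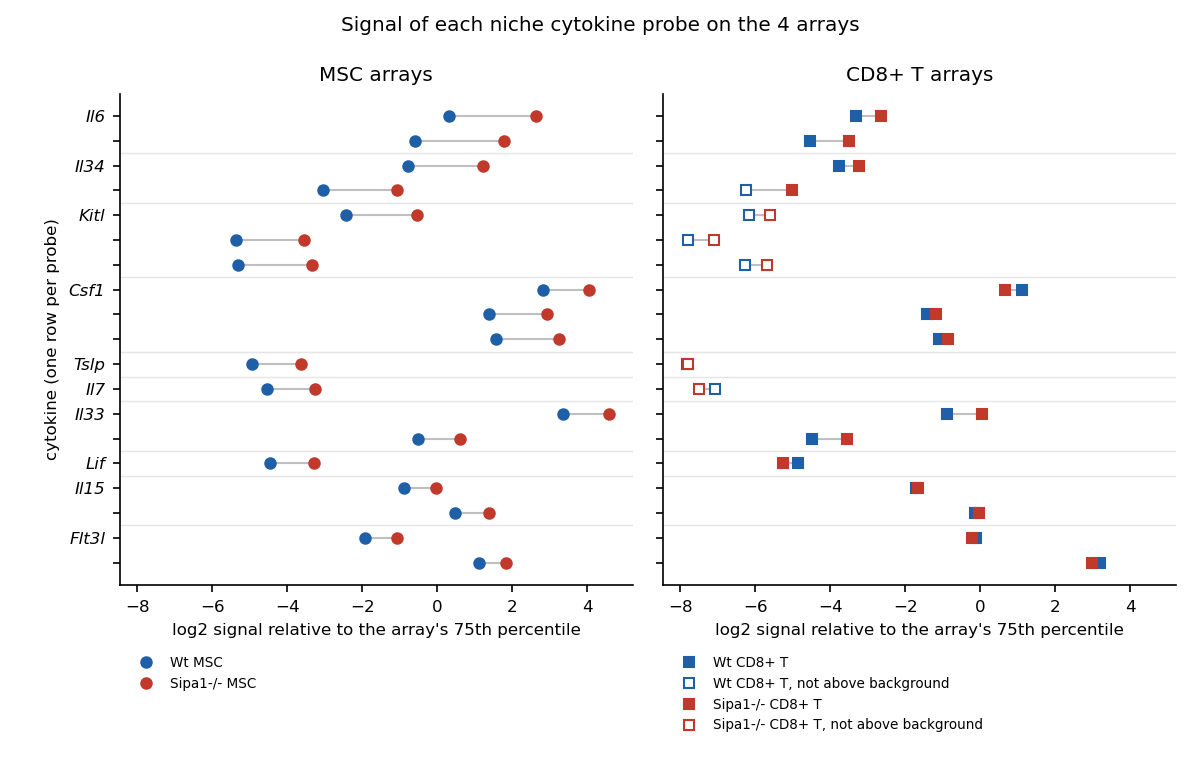
Log2 signal of each probe of the 10 cytokines, relative to the 75th percentile of its array, on the MSC arrays (left, circles) and the CD8+ T arrays (right, squares), with Wt in blue and Sipa1-/- in red. Open symbols are not above background. On the left each of the 19 red circles lies to the right of its blue one. On the right 6 of the Wt and 5 of the Sipa1-/- squares are open.

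Among ligands of gp130, IL-6, which drives the acute phase response and supports myeloid and plasma cells, had the largest difference of the 10 on the MSC arrays. Its brighter probe read 0.33 in Wt MSCs, 2.65 in knockout MSCs, -3.32 in Wt CD8+ T cells and -2.66 in knockout CD8+ T cells. The dimmer probe read -0.60, 1.78, -4.56 and -3.51 in the same order. Both probes placed the arrays in one order, with Sipa1-/- MSCs highest and Wt CD8+ T cells lowest. The log2 difference between genotypes in MSCs was 2.35 ± 0.14 (spot error, 2 probes, 1 array per genotype), or 5.11-fold, which placed Il6 at rank 220 from the top of the genes measured. LIF, which keeps stem cells undifferentiated and acts on many tissues, was dim, with -4.47 and -3.29 on the Wt and knockout MSC arrays and -4.85 and -5.25 on those of CD8+ T cells. Its difference in MSCs was 1.18 ± 0.24, or 2.26-fold, and 0.44 with normexp, within 2-fold.

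The M-CSF receptor has 2 of the 10 as ligands. IL-34, which maintains Langerhans cells and microglia, read -0.77, 1.23, -3.77 and -3.23 with its brighter probe in the order Wt MSC, Sipa1-/- MSC, Wt CD8+ T and Sipa1-/- CD8+ T. Its dimmer probe read -3.05, -1.06 and -5.03 on both MSC arrays and the knockout CD8+ T array and was not above background on the Wt CD8+ T array. In MSCs the probes gave 2.00 and 1.99, and the mean of 1.99 ± 0.15 corresponds to 3.98-fold. M-CSF, which supports monocytes, macrophages and osteoclasts, read 2.84, 4.06, 1.10 and 0.64 with its brightest probe. The other probes, both assigned to a different transcript from the first, read 1.38, 2.94, -1.44 and -1.17 and 1.57, 3.25, -1.11 and -0.86. In MSCs they gave differences of 1.56 and 1.68, against 1.23 for the brightest probe. The mean of the Csf1 probes was 1.49 ± 0.12, or 2.80-fold.

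Of the ligands of progenitor receptor kinases, stem cell factor was among the larger and Flt3 ligand the smallest of the 10 differences. The brightest Kitl probe read -2.44 on the Wt and -0.54 on the knockout MSC array and was not above background on the CD8+ T arrays. The other 2 Kitl probes read -5.36 and -5.31 on the Wt and -3.56 and -3.33 on the knockout MSC array. All 3 probes gave close values, 1.90, 1.80 and 1.98, with a mean of 1.89 ± 0.16, or 3.72-fold. With normexp the mean was 0.79, within 2-fold. For Flt3l, the brighter probe read 1.12, 1.83, 3.17 and 2.98 in the order Wt MSC, Sipa1-/- MSC, Wt CD8+ T and Sipa1-/- CD8+ T, and the dimmer one -1.91, -1.06, -0.13 and -0.22. Flt3l was therefore brighter in T cells than in MSCs with either probe. Its difference between the MSC arrays was 0.78 ± 0.14, or 1.71-fold, short of 2-fold.

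The cytokines that act on lymphoid cells differed in MSCs by between 0.89, for Il15, and 1.30, for Tslp. IL-7, the stromal factor of B and T lymphopoiesis, read -4.54 on the Wt and -3.25 on the knockout MSC array, a difference of 1.29 ± 0.26 or 2.44-fold from 1 dim probe. TSLP, an IL-7-like cytokine of barrier tissue, read -4.94 and -3.64, a difference of 1.30 ± 0.26. With normexp both were within 2-fold, Il7 at 0.47 and Tslp at 0.38. Neither was above background on the CD8+ T arrays. IL-15, which sustains NK and memory CD8+ T cells, read 0.47, 1.37, -0.13 and -0.03 with the brighter probe and -0.89, -0.02, -1.71 and -1.66 with the dimmer one. Its difference in MSCs was 0.89 ± 0.14, or 1.85-fold. IL-33 was bright in MSCs, with 3.36 and 4.59 on the Wt and knockout arrays and -0.89 and 0.04 on those of CD8+ T cells. Its dimmer probe read -0.52, 0.61, -4.50 and -3.56, and the difference in MSCs was 1.18 ± 0.14, or 2.26-fold.

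**Figure D2:**
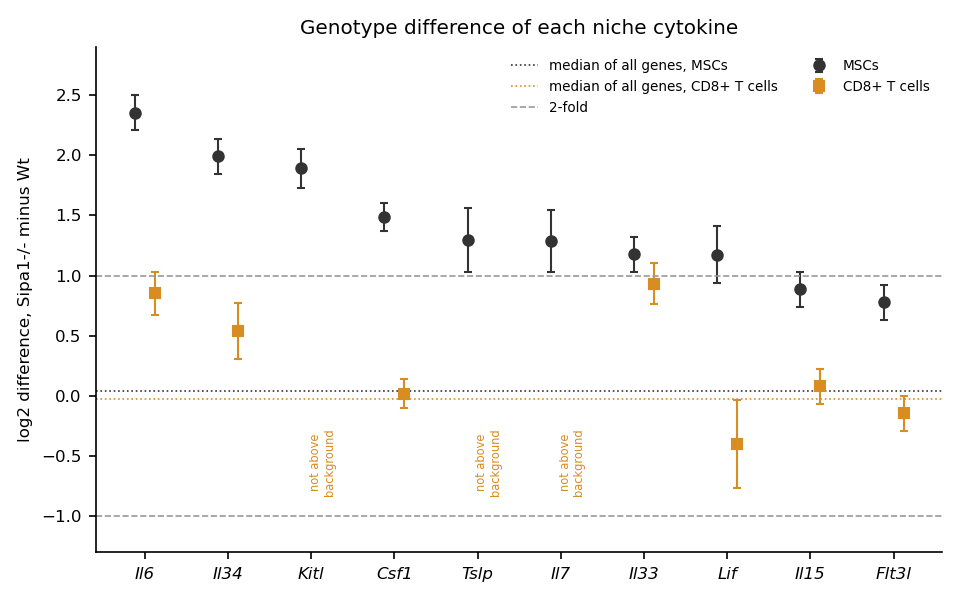
Log2 difference, Sipa1-/- minus Wt, for each cytokine in MSCs (black circles) and CD8+ T cells (orange squares), as the mean over its probes with the spot error as bars. Dotted lines are the medians of all genes, 0.04 and -0.02, and dashed lines mark 2-fold. In MSCs the values run from 0.78 for Flt3l to 2.35 for Il6, and in CD8+ T cells no value reaches 2-fold.

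**Figure D3:**
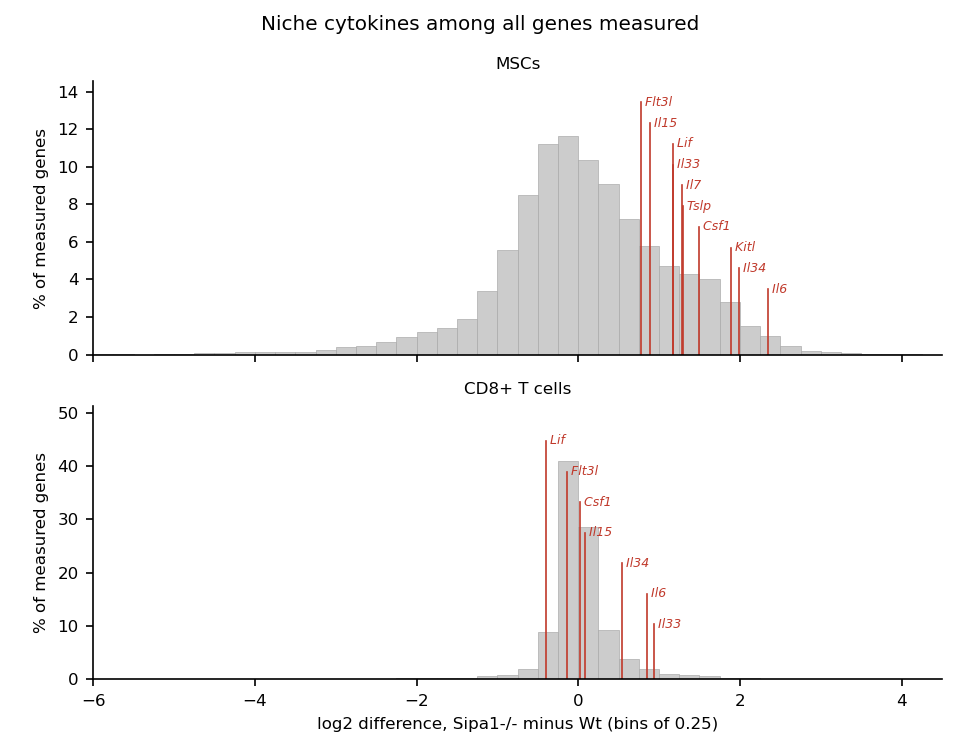
Share of all measured genes (bars, in %) by log2 difference between genotypes in bins of 0.25, with the cytokines marked by red lines whose height has no meaning. In MSCs all 10 lie right of the median of 0.04, in CD8+ T cells 5 of the 7 measured lie above 0.

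Mesenchymal markers were higher as well. All 9 that were measured were higher on the knockout array, 5 2-fold or more, with a median of 1.09 and a range from 0.26 for Col1a1 to 2.02 for Pdgfrb. Set against that median, 8 cytokines were above it and 2 below, and 1, Il6, was above it by 2-fold or more. Il6 was 1.27, Il34 0.91, Kitl 0.81 and Csf1 0.40 above the marker median. Tslp, Il7, Il33 and Lif were between 0.09 and 0.21 above it, each by less than its own spot error of 0.14 to 0.26. The centring was done without normexp, with which Kitl was at 0.79, Il7 at 0.47, Lif at 0.44 and Tslp at 0.38. Whether the count above the marker median holds with normexp was not tested. Il15 was 0.20 and Flt3l 0.31 below the marker median, written as -0.20 and -0.31. The B lineage markers ran the other way, with all 9 measured lower by 2-fold or more on the knockout array and a median of -4.16, and the 5 pan-leukocyte markers had a median of -1.53. Pericyte markers had a median of 1.22 and macrophage markers of 0.92, with 4 of 5 and 6 of 6 higher. The CD8+ T markers, which were dim on the MSC arrays, had a median of 1.20 over 4 genes. The part of these markers in the cytokine values was not tested.

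**Figure D4:**
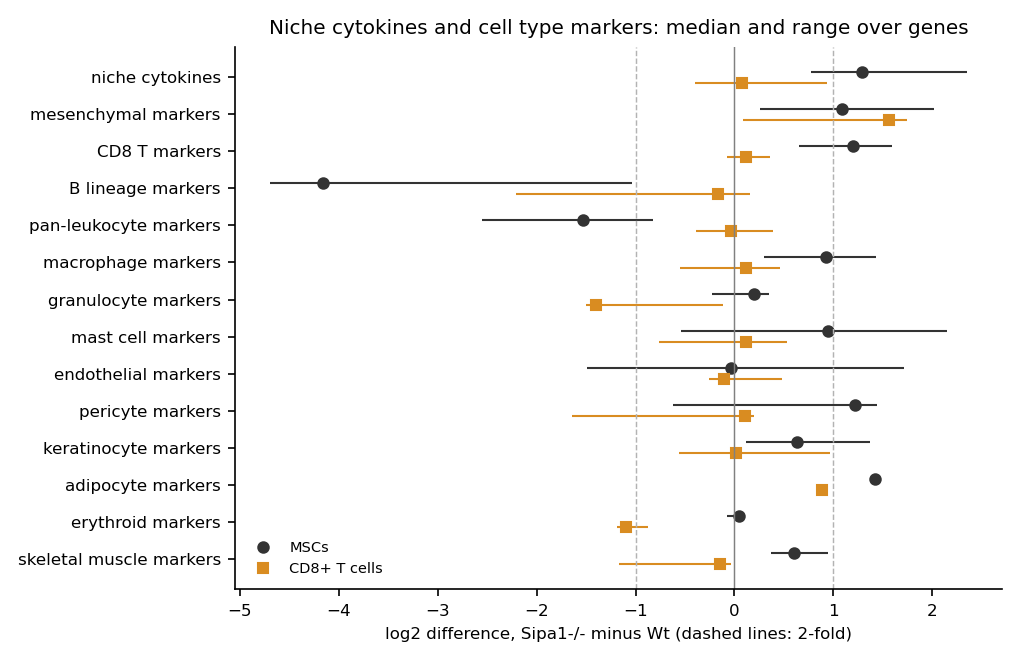
Median (symbol) and range over genes (line) of the log2 difference, Sipa1-/- minus Wt, for the 10 cytokines and for markers of 13 cell types, in MSCs (black) and CD8+ T cells (orange). In MSCs the cytokines (median 1.29) lie near the mesenchymal markers (1.09), while B lineage markers lie at -4.16. In CD8+ T cells the mesenchymal markers lie at 1.57.

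On the CD8+ T arrays 7 of the 10 cytokines were measured, and Il7, Kitl and Tslp were not above background with any probe. Of the 7, none was higher by 2-fold or more, against a background of 2.66% of 14333 genes, and none lower by 2-fold or more, against 1.40%. Their median was 0.08 and that of all genes -0.02, and 5 of 7 were higher, against 46.1% of genes, with 3 of 7 after a median shift and 6 of 7 with normexp background correction. Over these 7 the difference in MSCs exceeded that in CD8+ T cells by a median of 1.455 on the log2 scale, and by 0.74 with normexp background correction, with no test of it. The largest differences were those of Il33 at 0.93 ± 0.17, Il6 at 0.85 ± 0.18 and Il34 at 0.54 ± 0.23. With normexp these were 0.58, 0.38 and 0.28. The Il34 probe that was dark on the Wt array was higher on the knockout array by about 1.44-fold or more. Il15 at 0.08 ± 0.15, Csf1 at 0.02 ± 0.12 and Flt3l at -0.14 ± 0.14 were near 0, and Lif was at -0.40 ± 0.37. The Csf1 probes had opposite signs, -0.45 for the brightest and 0.27 and 0.25 for the others. Csf1, Il15 and Lif also changed sign with the scaling or the probe used, between -0.45 and 0.15, between -0.07 and 0.21 and between -0.55 and 0.04.

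Mesenchymal markers were detected on the CD8+ T arrays too, all 10 of them, although one, Thy1, is also made by T cells. All 10 were higher on the knockout CD8+ T array, 8 2-fold or more, with a median of 1.57 and a range from 0.09 for Thy1 to 1.74 for Col3a1. Their summed signal was 7.69 on the Wt and 8.23 on the knockout CD8+ T array, against 9.94 and 10.56 on the MSC arrays. On the CD8+ T arrays the brightest was Thy1, at 7.37 and 7.46. It makes up most of the sums there, which therefore say little about mesenchymal RNA. The median of the 10 marker levels was 1.04 and 2.57 on the CD8+ T arrays. The part of mesenchymal RNA in the values of Il33, Il6 and Il34 in CD8+ T cells was not tested.

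Between the populations, most of the cytokines were brighter in MSCs than in CD8+ T cells of the same genotype. In Wt tumors 4 of 7 measured were higher by 2-fold or more in MSCs, against 17.3% of 14219 genes, and 1 was lower by 2-fold or more, against 12.8%. The median was 2.41 and that of all genes -0.06. Il33 led with 4.12, followed by Il6 at 3.80, Il34 at 3.0 and Csf1 at 2.41. With normexp these were 3.05, 2.31, 1.76 and 2.18. Il15 at 0.72 and Lif at 0.39 were within 2-fold, and Flt3l was lower in MSCs by 1.92, written as -1.92. In Sipa1-/- tumors 6 of 7 were higher by 2-fold or more in MSCs, against 21.9% of 14293 genes, and none lower by 2-fold or more, against 18.7%, with a median of 3.88. There the order was Il6 at 5.30, Il33 at 4.36, Il34 at 4.22, Csf1 at 3.88, Lif at 1.96 and Il15 at 1.52. The Il34 value in Wt tumors rests on its brighter probe alone, which gave 4.46 in Sipa1-/- tumors. With normexp 5 of 7 were higher by 2-fold or more, against 2465 of 14293 genes, since Lif was at 0.44. The order became Il6 at 4.10, Csf1 at 3.63, Il33 at 3.58, Il34 at 2.45 and Il15 at 1.30. Flt3l, at -0.997, lay just within 2-fold. Without replicates, neighbours in these orders such as Il34 and Csf1 or Il15 and Lif cannot be ranked beyond the spread between mice.

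For cytokines dark in T cells only an approximate lower bound can be had, from the dimmest signal that counted as above background on the array. Dark probes can read slightly above that level. On the Sipa1-/- CD8+ T array it was -5.49, and the dark Il4 probe read -5.36. Kitl, by its brightest probe, was at least 8.72-fold higher in Wt MSCs than in Wt CD8+ T cells and at least 30.9-fold higher in Sipa1-/- MSCs than in Sipa1-/- CD8+ T cells. Il7 was at least 2.03-fold and 4.71-fold higher and Tslp at least 1.54-fold and 3.61-fold higher in the same pairs.

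The receptors were written as a list of 14 genes, all on the array and all measured on the MSC arrays. Of these 4 were higher by 2-fold or more and 1 lower by 2-fold or more on the knockout MSC array, against 19.3% and 11.3% of all genes, with a median of 0.54. The higher ones included both IL-6 receptor chains, Il6st (gp130) at 1.48 ± 0.14 and Il6ra at 1.16 ± 0.15, and the LIF receptor Lifr at 1.12 ± 0.12. Ptprz1, a receptor that binds IL-34 and pleiotrophin, was at 1.08 ± 0.32. With normexp only Il6st, at 1.32, was still higher by 2-fold or more, against 11.9% of all genes. Lifr was then at 0.91, Il6ra at 0.83 and Ptprz1 at 0.28. Il6ra read -3.60 and 1.57 on the Wt and -2.57 and 2.86 on the knockout MSC array, and its level was higher still in CD8+ T cells, at -1.18 and 4.38 in Wt cells. The M-CSF receptor Csf1r, also one of the macrophage markers, was at 0.85 ± 0.14.

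Il7r, the IL-7 receptor chain that TSLP also uses, was the gene that was lower by 2-fold or more. It read 3.58 on the Wt and -0.58 on the knockout MSC array, and 5.55 and 5.40 on the CD8+ T arrays. Its difference of -4.16 ± 0.20 in MSCs is close to the median of the B lineage markers, -4.16, and Il7r is itself made by B cell precursors. The part of B lineage RNA in this value was not tested. Its co-chains Il2rg at -0.79 and Crlf2 at -0.53, and the progenitor receptors Kit at -0.26 and Flt3 at -0.33, were lower by less than 2-fold. The direction of Il15ra, at 0.67, and of the IL-33 receptor Il1rl1, at 0.37, depended on the probe, since the brightest gave -0.05 and -0.29. In CD8+ T cells 13 receptors were measured and 1, Il1rl1, was higher by 2-fold or more at 1.30 ± 0.21, from -2.27 on the Wt to -0.97 on the knockout array, against 2.66% of all genes higher and 1.40% lower, with a median of 0.07 over the list. With normexp Il1rl1 was at 0.92, within 2-fold.

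**Figure D5:**
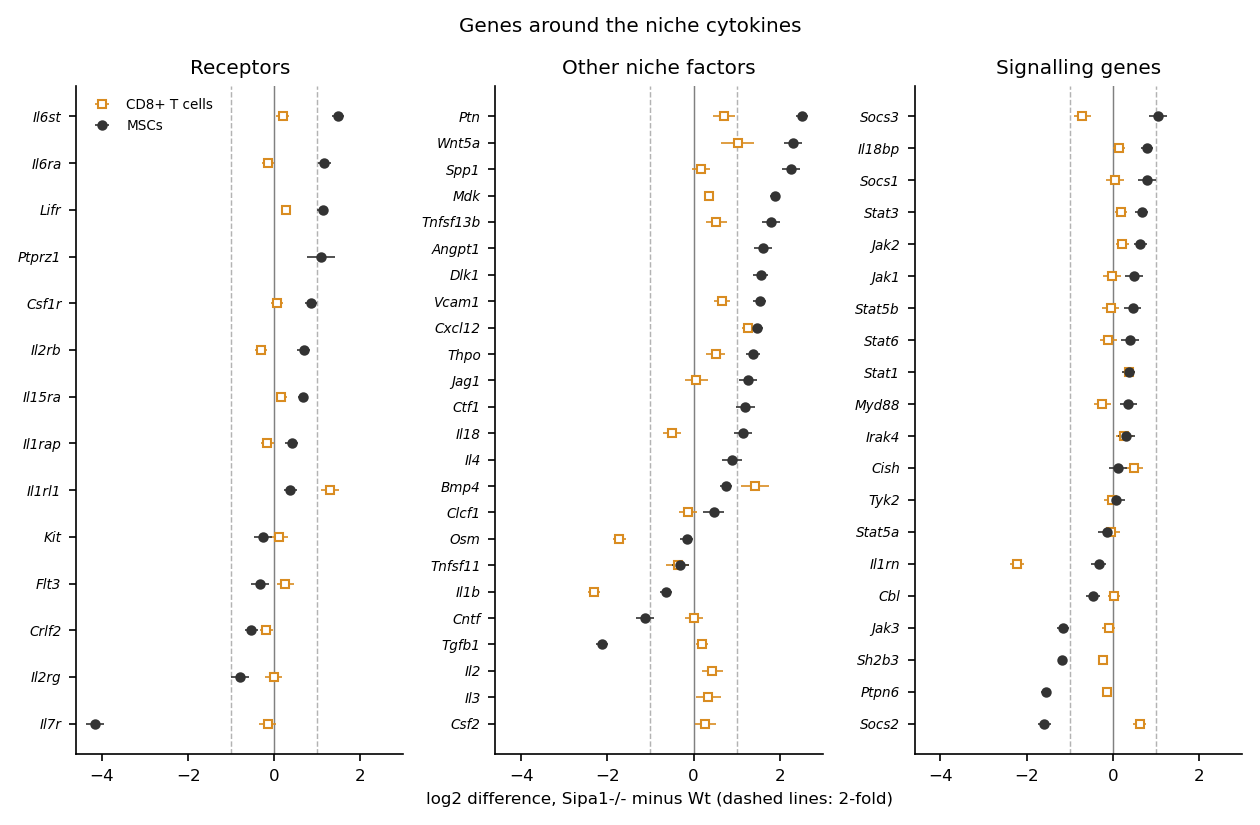
Log2 difference, Sipa1-/- minus Wt, for the measured receptors, other niche factors and signalling genes, in MSCs (filled black) and CD8+ T cells (open orange) with the spot error as bars, ordered by the MSC value. Dashed lines mark 2-fold. Il7r lies alone at -4.16 among the receptors, and 13 of the niche factors lie 2-fold or more to the right in MSCs.

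Of 32 other factors of the niche, 31 were on the array and 21 were measured on both MSC arrays. Of the measured ones 13 were higher by 2-fold or more and 2 lower by 2-fold or more on the knockout array, against 19.3% and 11.3% of all genes, with a median of 1.27, close to the 1.29 of the cytokines. The growth factor pleiotrophin (Ptn) was highest at 2.52 ± 0.14, and its relative midkine (Mdk) was at 1.89 ± 0.12. Wnt5a at 2.31 ± 0.21, osteopontin (Spp1) at 2.26 ± 0.20, the B cell survival factor BAFF (Tnfsf13b) at 1.80 ± 0.20 and Angpt1 at 1.62 ± 0.20 followed. Cxcl12, the chemokine that retains stem cells and B cell precursors in marrow, read 4.31 on the Wt and 5.69 on the knockout MSC array with its brighter probe, a mean difference of 1.48 ± 0.14, and Vcam1 was at 1.54 ± 0.14. Csf2 (GM-CSF) was not above background on the Wt MSC array and read -3.51 on the knockout MSC array, higher by about 5.11-fold or more. With normexp 9 of the 21 were higher by 2-fold or more, against 11.9% of all genes, the 4 lost being Thpo, Ctf1, Jag1 and Dlk1.

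Tgfb1 and Cntf were the factors lower by 2-fold or more in Sipa1-/- MSCs. Tgfb1, which restrains progenitor growth and is made by leukocytes and stroma alike, went from 2.02 to -0.03 with one probe and from -0.69 to -2.89 with the other, a mean of -2.12 ± 0.15. Cntf, another gp130 ligand, was at -1.12 ± 0.20, and at -0.85 with normexp. In CD8+ T cells, of 20 factors measured, 3 were higher by 2-fold or more, Bmp4 at 1.42, Cxcl12 at 1.27 and Wnt5a at 1.02, and 2 lower by 2-fold or more, Il1b at -2.31 and Osm at -1.72, against 2.66% and 1.40% of all genes. With normexp Bmp4 was at 0.43 and Wnt5a at 0.26, both within 2-fold, and Cxcl12 at 1.05. Granulocyte markers were lower on the same array, with a median of -1.40 and 6 of 6 lower, and mesenchymal markers higher, as above. The part of these markers in the values was not tested.

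Of 20 genes of signalling downstream of the receptors, all measured, 1 was higher by 2-fold or more and 4 lower by 2-fold or more in Sipa1-/- MSCs, against 19.3% and 11.3% of all genes, with a median of 0.34. The higher one was Socs3, the inhibitor induced by gp130 signals, which read 4.02 on the Wt and 5.07 on the knockout MSC array, a difference of 1.04 ± 0.20, or 0.905 after a median shift. In CD8+ T cells Socs3 read 4.54 and 3.83. Socs2 at -1.59, the phosphatase Ptpn6 (SHP-1) at -1.56, the adaptor Sh2b3 (Lnk) at -1.17 and the lymphoid kinase Jak3 at -1.16 were the lower ones, beside pan-leukocyte markers at a median of -1.53. With normexp Sh2b3 was at -0.98 and Jak3 at -0.93, within 2-fold. The part of leukocyte RNA in the values of these lower genes was not tested. Stat3, the main transcription factor of gp130 signals, was at 0.67 and Jak2 at 0.64. In CD8+ T cells 1 of 20 was lower by 2-fold or more, the IL-1 antagonist Il1rn at -2.23 ± 0.17, and none higher, against 1.40% and 2.66% of all genes. With normexp Il1rn was at -1.38. Granulocyte markers had a median of -1.40 between the same arrays. Their part in the values of Il1rn and Socs3 in CD8+ T cells was not tested.

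Profiles over the 4 arrays were compared for the 7 cytokines measured on all of them, against 13753 other genes, by the root mean square difference of log2 values after the mean of each gene was taken off. The nearest genes to Il6 were Fbn2 at 0.076 and Obsl1 at 0.092, to Il34 Fzd1 at 0.044 and Gulp1 at 0.054, and to Csf1 Myl9 at 0.047 and Tgfbr3 at 0.055. Il33 was nearest to Hspa12b at 0.023 and Cgnl1 at 0.076. For Flt3l these were Hpcal1 at 0.016 and Trib2 at 0.031, for Il15 Mafg at 0.031 and Ttl at 0.032, and for Lif 1810019D21Rik at 0.059 and Kif7 at 0.076. With 4 arrays many genes come this near, and the measure is a description.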

How the data were processed

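RNA of 4 sorted populations was hybridised to Agilent SurePrint G3 mouse arrays in one color, 1 array per population and genotype, all on one slide and scan. The deposited values are spot intensities that the authors' Feature Extraction software had corrected for background, with no normalization between arrays. Per the labels the version is 9.1, and the file header gives 12.0.3.1. The authors' series matrix holds the same intensities times 1 constant per array (medians 41.0, 52.0, 25.5 and 30.9 for Wt MSC, Sipa1-/- MSC, Wt CD8+ T and Sipa1-/- CD8+ T). The choice of constants is not given in the sources used here.

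Intensities were taken to log2 and shifted by the 75th percentile of the spots that are not controls. A probe was kept when its flags for saturation and uneven spot or background were 0 and those for signal above background 1 in at least 50% of its spots on both arrays of a pair. Probes of a gene were averaged, and a log2 difference of 1 was the threshold. Accessions were matched to RefSeq symbols (GRCm38.p6), which named 57.6% of spots. A probe dark on one array gives an approximate bound against the lowest signal above background there, or against its own value if that was higher. The scanner's spot error was the only error at hand, and the number of arrays limits the precision. Spots of the 300 probes printed 10 times had a median SD of 0.040 to 0.045 on the log2 scale.

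The cytokines, lists and markers were chosen with earlier results of these data known. The genes named are the 10 cytokines, those of the receptor, niche factor and signalling lists, with those past 2-fold first, markers, Sipa1 and the 2 genes nearest to each cytokine in profile. Alternatives were 7, being a median shift, quantile normalization, the series matrix, limma's normexp background correction of median spot signals (offset 50; mean signals were not used here), no flags, flags on at least 1 array, and the brightest probe. Centring on the mesenchymal markers was added after seeing the data. The calculation was run on simulated data with spot noise only, which tests the arithmetic but neither dim signal nor the spread between mice. R 4.3.3 with limma 3.58.1 ran the normalizations, and Python 3.11.15 with pandas 2.3.3, numpy 2.4.6 and matplotlib 3.10.9 the rest.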

Additional observations from a re-analysis of the deposited data

Results flagged for a closer look

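Several genes had genotype differences of opposite sign in the 2 populations, each with 1 array per group. The difference between populations was not tested. In CD8+ T cells the values of Flt3l, Il6ra and Cntf were no larger than about their spot errors of 0.14, 0.14 and 0.20. Their sign there is not settled. The value given is the log2 difference in MSCs minus that in CD8+ T cells. Among the cytokines it was 0.92 for Flt3l (0.78 in MSCs, -0.14 in CD8+ T cells) and 1.58 for Lif (1.18 and -0.40), and the Lif value in CD8+ T cells changed sign with one of the settings tried. Among the receptors it was 1.31 for Il6ra (1.16 and -0.14). Among the other niche factors it was 1.64 for Il18 (1.15 and -0.50), -2.32 for Tgfb1 (-2.12 and 0.20) and -1.13 for Cntf (-1.12 and 0.00). The Cntf value in CD8+ T cells changed sign with the scaling. Among signalling genes the difference between populations was 1.75 for Socs3 (1.04 and -0.71) and -2.21 for Socs2 (-1.59 and 0.63). Between the same MSC arrays B lineage markers had a median of -4.16, pan-leukocyte markers of -1.53 and mesenchymal markers of 1.09. Between the CD8+ T arrays granulocyte markers had a median of -1.40 and mesenchymal markers of 1.57. The part of these markers in the values was not tested.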

How the results depend on the processing

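The 10 cytokines stayed higher on the knockout MSC array under all 7 other settings tried, and no called value changed sign. With normexp the count higher by 2-fold or more in MSCs was 4, the median 0.80, the medians of MSCs over CD8+ T cells 1.76 in Wt and 2.45 in Sipa1-/- tumors, and the median genotype difference between the populations 0.74. With the series matrix these medians were 1.50, 2.87 and 4.41, and 1 cytokine was higher by 2-fold or more in CD8+ T cells, against 503 of 14333 genes. A median shift gave medians of MSCs over CD8+ T cells of 2.18 and 3.66, and the brightest probe 1.74 and 3.42. Under a median shift, quantile normalization and the brightest probe 1 cytokine, Flt3l, was lower by 2-fold or more in Sipa1-/- MSCs than in CD8+ T cells. Over all genes these counts were 3714, 2911 and 2618 of 14293. With no flags, or flags on 1 array, 7 cytokines were higher by 2-fold or more in Wt MSCs than in CD8+ T cells. The counts over all genes were 4183 of 22907 and 3895 of 16372. Il7, Kitl and Tslp were the ones that entered, and they were dark on both CD8+ T arrays. With flags on 1 array they could enter only by their MSC signal, so their direction was set by the filter. Flags on 1 array gave a genotype difference between populations of 1.12. Centred on the mesenchymal markers, a choice made after seeing the data, 1 cytokine was higher by 2-fold or more in Sipa1-/- MSCs and the median was 0.21. The normexp offset of 50 is added to every signal, which by construction shrinks differences between dim probes. How much of the normexp shift it makes up was not tested. The cause of the other shifts was not tested, apart from the genes and probes that enter by construction. Over all genes in MSCs, the counts higher by 2-fold or more and lower were 2560 and 2176 with a median shift (54.1% higher of those past 2-fold), 3667 and 1280 with the series matrix (74.1%) and 1827 and 1190 with normexp, against 2955 and 1733 (63.0%). The series matrix moved the median of all genes by 0.21 in MSCs and a median shift by -0.14. In CD8+ T cells the counts were 108 and 98 with normexp, 1058 and 633 with no flags and 681 and 371 with flags on 1 array, against 381 and 201. No paired analysis was possible because each group has 1 array. Dim signal limits Il7, Tslp, Lif and Kitl most.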
